A study of Mus musculus with 24 samples.

Results

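The 10 genes described here encode proteins that make coenzyme Q in mitochondria: Pdss2, Coq2, Coq3, Coq4, Coq5, Coq6, Coq7, Coq8a, Coq8b and Coq9. They were picked by name from the deposited gene count table, where they are 10 of 54532 rows and of 22046 protein-coding genes, and all 10 passed the filter on low counts in every comparison. The set was proposed with results in view, because Coq8a was known to be among the largest falls in double knockout livers. Differences of these genes that involve the double knockout are therefore given as values, with no p.

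RNA-seq was measured in whole livers of 24 male mice aged 8 to 10 weeks after a 24 h fast, and the mice formed 6 groups of 4. Whole-body Rab30-/- mice, which lack exon 4 of Rab30, were compared with their wildtype (WT) littermates. Liver-specific knockouts of Rab30 (Rab30L-/-), of Cpt2 (Cpt2L-/-) and of both genes (DKO) carried floxed alleles and albumin-Cre, which acts in hepatocytes, so other cell types of the liver should keep both genes. The floxed controls (labelled ffff, and ff;ff in the plots) carried floxed Rab30 and Cpt2 without Cre and were littermates of the DKO mice. Every group, controls included, was fasted, so no fed liver was compared. Rab30 encodes a small GTPase of the Golgi, and Cpt2 encodes the inner membrane enzyme that long-chain fatty acids need to enter β-oxidation.

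Coenzyme Q is a lipid with a redox-active ring and a long isoprenoid tail that carries electrons within the inner mitochondrial membrane. It receives them from complexes I and II, from the electron transfer flavoprotein of fatty acid oxidation and from several other dehydrogenases, and passes them to complex III. Its tail is built from mevalonate pathway units by the synthase that contains Pdss2, Coq2 joins the tail to the ring precursor 4-hydroxybenzoate, and Coq6, Coq3, Coq5 and Coq7 then modify the ring. Coq4 and Coq9 are accessory members of the membrane complex that holds these enzymes, and Coq8a and Coq8b are related atypical kinase-like ATPases that this complex needs. A fasted liver relies on fatty acid oxidation, which feeds electrons into this pool.

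The regions upstream of Coq8a, Coq4 and Coq7 are shown because these 3 genes changed when Cpt2L-/- livers were compared with the floxed controls. RefSeq's promoter table (build GRCm38.p6) held entries for 8 of the 10 genes, in 10 windows, and none for Coq5 and Coq8b. It gives 2 starts for Coq8a, 2535 bases apart, both inside the annotated gene on the minus strand of chromosome 1. Of the 250 bases before each start, the longest stretch that no annotated exon covers is shown. For Coq8a start 1 this was 195 bases (chr1:180196076-180196270, minus strand), and for start 2 it was 117 bases (chr1:180193486-180193602, minus strand), and both stretches lie in the gene but outside its annotated exons. The Coq4 window (chr2:29787243-29787492, plus strand) lies in an intron of Trub2, which runs on the opposite strand, and the Coq7 window (chr7:118533357-118533606, minus strand) overlaps no annotated gene. Capitals mark matches on either strand to 4 short motifs: AGGTCA as the half-site of many nuclear receptors, CACGTG as the E-box, CCAAT as the box bound by NF-Y and TGCGCA as the core of the NRF1 site.
Coq8a start 1: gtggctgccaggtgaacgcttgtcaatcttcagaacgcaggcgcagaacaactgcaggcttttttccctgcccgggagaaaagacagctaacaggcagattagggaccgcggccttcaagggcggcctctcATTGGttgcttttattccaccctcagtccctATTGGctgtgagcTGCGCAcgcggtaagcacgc
Coq8a start 2: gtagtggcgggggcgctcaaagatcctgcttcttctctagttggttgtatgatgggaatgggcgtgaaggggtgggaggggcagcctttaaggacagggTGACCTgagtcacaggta
Coq4: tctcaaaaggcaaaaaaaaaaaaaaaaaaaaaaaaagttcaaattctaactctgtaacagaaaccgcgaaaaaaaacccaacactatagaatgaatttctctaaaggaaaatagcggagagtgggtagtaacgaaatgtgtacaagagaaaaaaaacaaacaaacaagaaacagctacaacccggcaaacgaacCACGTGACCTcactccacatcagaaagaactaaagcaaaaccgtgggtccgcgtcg
Coq7: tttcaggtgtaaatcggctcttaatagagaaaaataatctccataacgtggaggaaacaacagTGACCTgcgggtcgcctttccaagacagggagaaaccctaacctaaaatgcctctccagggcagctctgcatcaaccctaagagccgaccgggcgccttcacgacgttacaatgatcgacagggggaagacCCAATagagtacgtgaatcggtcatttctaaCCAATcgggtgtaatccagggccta
AGGTCA occurred, as its reverse complement TGACCT, before Coq8a start 2 and before Coq4 and Coq7, and in Coq4 it overlapped a CACGTG by 2 bases. CCAAT occurred before Coq8a start 1, where 2 of its 3 matches lie in the stretch shown, and before Coq7. TGCGCA occurred before Coq8a start 1. Among the genes that did not pass against the floxed controls, Coq6 had CCAAT and Coq2 had TGCGCA in the window. The windows of Coq3, Coq9 and Pdss2 held none of the motifs. Of all 32851 windows of 250 bases in the RefSeq table, 14.0% held AGGTCA, 6.02% CACGTG, 33.8% CCAAT and 6.43% TGCGCA. These matches are descriptions of the letters and no binding was measured.

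In the deposited coordinates (GRCm38), Coq8a lies on the minus strand at chr1:180165238-180199602, Coq4 on the plus strand at chr2:29787493-29797935 and Coq7 on the minus strand at chr7:118509659-118533356. Coq8b lies on the plus strand at chr7:27233023-27257950 and Coq3 on the plus strand at chr4:21879673-21912162. Of the 10 genes, Coq7 and Coq8b share chromosome 7 with Rab30, at distances of 25.67 and 65.48 Mb, and Coq3 shares chromosome 4 with Cpt2, at 85.99 Mb.

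Library totals ranged from 11801027 to 24497738 counts with a median of 14358966, and mitochondrially encoded genes took 4.306% to 9.245% of them. The counts of the targeted genes followed the labels only in part, so each group is named by its label and every direction below is between livers so labelled. Rab30 was at 5.39 to 17.4 CPM in whole-body Rab30-/- and at 6.64 to 30.1 CPM in WT livers. It was at 122 to 188 CPM (reads of a gene scaled to a common library total) in livers labelled Cpt2L-/- and at 101 to 231 CPM in those labelled DKO, against 25.9 to 44.6 CPM in the floxed controls and 10.4 to 26.6 CPM in those labelled Rab30L-/-. The Rab30L-/- mean lay below that of the floxed controls, while every liver labelled DKO, a knockout of Rab30 by label, lay above them. Cpt2 was at 96.1 to 120.0 CPM in DKO livers, below every floxed control at 128 to 139 CPM, and at 95.3 to 167 CPM in the livers labelled Cpt2L-/-, which overlapped the controls. Rab30L-/- livers had 170 to 268 CPM of Cpt2, above every Cpt2L-/- liver, and the log2 fold change of Cpt2L-/- against Rab30L-/- was -0.80 ± 0.180 (SE) with an edgeR adjusted p of 0.00494. Removal of an exon can leave the rest of a transcript countable, so gene-level counts do not settle whether a floxed gene was recombined. The study also measured fasting liver Rab30 and Cpt2 RNA by qRT-PCR and Rab30 protein by immunoblot, and these were not analysed here. The deepest library was that of a Rab30L-/- liver that stood apart from the other 3 of its group in Coq3 and Coq4, and values without it are given where it matters. The 5 hepatocyte markers in the table summed to 82470 to 104500 CPM in the floxed controls, 65920 to 78910 CPM in Rab30L-/-, 37280 to 47730 CPM in Cpt2L-/- and 48580 to 61350 CPM in DKO, while skeletal muscle markers were at or near 0 everywhere.

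Read per unit of length (FPKM), the genes were made at very different levels. In the floxed controls the highest level was that of Coq9, the lipid-binding partner of Coq7, at 38.4 ± 0.818 FPKM (SD, n = 4), and the next that of Coq8a at 35.0 ± 4.38 FPKM, and their ranges overlapped. Coq2 followed at 12.5 ± 0.739 FPKM, Coq5 at 9.02 ± 1.35, Coq3 at 7.44 ± 0.517 and Coq6 at 4.61 ± 0.668. The lowest levels were those of Coq7 at 3.30 ± 0.514 FPKM, Coq8b at 2.42 ± 0.556, Pdss2 at 1.69 ± 0.194 and Coq4 at 1.18 ± 0.252, and each of these overlapped its neighbour in the order. Coq8a and Coq9 also held the top 2 places, with overlapping ranges, in WT, whole-body Rab30-/- and Rab30L-/- livers.

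The order was different in the livers labelled as lacking Cpt2. In Cpt2L-/- livers Coq9 stayed first at 34.9 ± 2.34 FPKM, Coq2 was second at 15.9 ± 1.63, and Coq8a was the third at 10.3 ± 0.579, overlapping Coq3 at 9.58 ± 1.32. Coq4 moved from the last place to the eighth, at 3.43 ± 1.10 FPKM, above Coq8b at 2.24 ± 0.365. The DKO livers had Coq8a in the same place at 9.91 ± 0.804 FPKM. Coq8a made up 31.9% of the summed mean FPKM of the 10 genes in WT livers, 33.5% in whole-body Rab30-/-, 30.3% in the floxed controls and 26.4% in Rab30L-/-, but 10.6% in Cpt2L-/- and 11.1% in DKO. The sum of the other 9 genes was 80.5 ± 2.35 FPKM in the floxed controls, 86.8 ± 7.81 in Cpt2L-/- and 79.6 ± 4.13 in DKO livers.

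**Figure D1:**
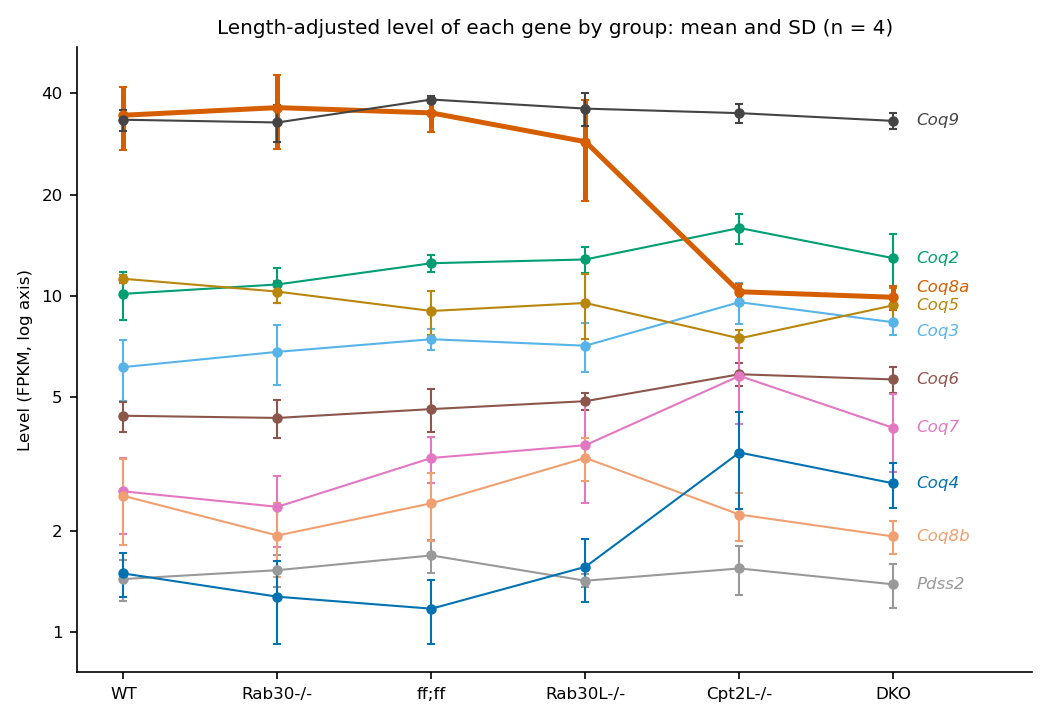
Mean level in FPKM on a log axis (bars are SD, n = 4 livers) of the 10 coenzyme Q genes, with the 6 groups along the horizontal axis and lines joining the means of a gene. Coq8a lies beside Coq9 near 35.0 FPKM in the floxed controls (ff;ff) and near 10.3 in Cpt2L-/- livers, while Coq4 goes from 1.18 to 3.43.

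Changes in the coenzyme Q genes were found between livers labelled with and without Cpt2, where 23.8% (against floxed controls) and 31.4% (against Rab30L-/-) of all genes changed too. Relative to the floxed controls, Cpt2L-/- livers had 3.405-fold less Coq8a, 2.91-fold more Coq4 and 1.75-fold more Coq7, and the other 7 genes did not pass the test. Relative to Rab30L-/- livers, Coq8a and Coq8b were lower and Coq4 and Coq3 higher. Cpt2L-/- and Rab30L-/- livers differ by label in both Rab30 and Cpt2, so the parts of these genes cannot be told apart there. The sources do not say against which group the fall of Coq8a in DKO livers was taken. Both comparisons share the 4 Cpt2L-/- libraries with that of DKO and Cpt2L-/-, and the first also shares its 4 controls with that of DKO and floxed controls. A gene was counted as changed with a Benjamini-Hochberg adjusted p under 0.05 over all genes tested by edgeR's quasi-likelihood test and a change of at least 1.2-fold. Since whole livers were used, fewer cells of a type and less RNA per cell cannot be told apart. The floxed controls are labelled as littermates of the DKO mice only, so genotype and litter cannot be told apart in these comparisons.

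Coq8a was at 56.8, 50.04, 56.4 and 52.4 CPM in the 4 Cpt2L-/- livers, at 173, 176, 214 and 165 CPM in the floxed controls and at 219, 147, 107 and 130 CPM in Rab30L-/- livers. It was at 51.9, 46.5, 50.3 and 56.9 CPM in DKO livers, at 211, 242.4, 132 and 184 CPM in whole-body Rab30-/- livers and at 139, 206, 164.2 and 229 CPM in WT livers. All 8 livers labelled as lacking Cpt2 lay below all 16 others, and the lowest of those 16 was the deepest Rab30L-/- library. The fitted log2 fold change of Coq8a was -1.77 ± 0.137 (SE) in Cpt2L-/- against floxed controls, with an edgeR adjusted p of 3.058e-06. Against Rab30L-/- it was -1.49 ± 0.197 with an adjusted p of 0.00016, and -1.64 ± 0.170 without the deepest library (adjusted p of 3.556e-05). The Cpt2L-/- and floxed control libraries also serve in the comparisons with DKO, so these p-values may not be independent of the gene choice.

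Coq8b, the paralog of Coq8a, was at 11.9, 10.01, 15.2 and 12.6 CPM in Cpt2L-/- livers, at 8.997, 14.5, 15.96 and 13.6 CPM in the floxed controls and at 14.6, 18.4, 21.5 and 18.9 CPM in Rab30L-/- livers. Its ranges overlapped in both comparisons. Coq8b fell against Rab30L-/-, by 0.57 ± 0.158 (SE) on the log2 scale with an edgeR adjusted p of 0.0151. Against the floxed controls its log2 fold change was -0.12 ± 0.200 with an adjusted p of 0.721. The ratio of the Coq8a level to the Coq8b level in FPKM was 15.0 ± 3.56 (SD, n = 4) in the floxed controls, 4.67 ± 0.615 in Cpt2L-/- and 5.20 ± 0.855 in DKO livers, with ranges of 12.8 to 20.3, 3.93 to 5.28 and 4.46 to 6.43.

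Coq4, the organizer of the biosynthetic complex and one of the least abundant of these RNAs, moved in the other direction. It was at 7.30, 9.505, 15.5 and 13.9 CPM in Cpt2L-/- livers, at 3.84, 3.78, 5.02 and 3.05 CPM in the floxed controls and at 4.605, 4.62, 7.13 and 4.86 CPM in Rab30L-/- livers. Every Cpt2L-/- liver was above every liver of both other groups, although 2 of the 4 were well above the other 2. The log2 fold change was 1.54 ± 0.261 (SE) against the floxed controls, with an edgeR adjusted p of 0.000889, and 1.10 ± 0.246 against Rab30L-/-, with an adjusted p of 0.00483. Against Rab30L-/- it was 1.28 ± 0.257 without the deepest library (adjusted p of 0.00294). These values rest on 44 to 239 reads per library.

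Coq4 shares 1010 bases with Trub2, a pseudouridine synthase gene on the opposite strand, and the sources used here do not say whether reads were counted by strand. Trub2 rose as well, from 13.5 ± 2.26 to 25.8 ± 3.46 CPM (SD, n = 4) in Cpt2L-/- livers against the floxed controls, a log2 fold change of 0.92 ± 0.166 with an edgeR adjusted p of 0.00141. Coq8a shares 366 bases with Cdc42bpa, a kinase gene on the opposite strand whose log2 fold change in the same comparison was 1.48 ± 0.166 with an adjusted p of 4.421e-05. The direction of Cdc42bpa was thus opposite to that of Coq8a, and the part of shared reads in either result was not tested.

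Coq7, the hydroxylase of the last ring oxidation, was at 26.7, 29.96, 50.1 and 40.9 CPM in Cpt2L-/- livers, at 20.003, 20.8, 25.0 and 17.6 CPM in the floxed controls and at 15.2, 22.0, 34.2 and 21.0 CPM in Rab30L-/- livers. The Cpt2L-/- livers lay above all floxed controls but overlapped Rab30L-/- through its deepest library, at 34.2 CPM. The log2 fold change of Coq7 was 0.81 ± 0.199 (SE) against the floxed controls, with an edgeR adjusted p of 0.00979. Against Rab30L-/- it was 0.66 ± 0.251 with an adjusted p of 0.0698, and 0.91 ± 0.218 without that library (adjusted p of 0.00866).

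The remaining ring enzymes showed smaller differences. Coq3, an O-methyltransferase, was at 26.5, 27.3, 34.5 and 25.4 CPM in Cpt2L-/- livers, at 23.8, 21.8, 21.7 and 20.3 CPM in the floxed controls and at 18.6, 19.8, 27.0 and 19.6 CPM in Rab30L-/- livers. The Cpt2L-/- livers lay above the floxed controls and overlapped the Rab30L-/- livers. Coq3 rose against Rab30L-/-, with a log2 fold change of 0.41 ± 0.146 (SE) and an edgeR adjusted p of 0.0485, and this call was lost on leaving out any 1 library other than the deepest (adjusted p of 0.0624 to 0.128 in those 7 fits). Without the deepest library it was 0.54 ± 0.137 with an adjusted p of 0.0112. Against the floxed controls its log2 fold change was 0.36 ± 0.142 with an adjusted p of 0.0838.

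Coq6, a monooxygenase, was at 17.4 to 20.1 CPM in Cpt2L-/- livers and at 12.6 to 17.1 CPM in the floxed controls, and the log2 fold change of 0.34 ± 0.154 (SE) had an edgeR adjusted p of 0.132. Coq5, the C-methyltransferase, was at 21.3 to 24.7 CPM and 23.0 to 32.2 CPM in these groups, with a log2 fold change of -0.27 ± 0.145 and an adjusted p of 0.202. Against Rab30L-/- the log2 fold change of Coq5 was -0.37 ± 0.155 with an adjusted p of 0.0913.

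The entry steps and Coq9 did not pass the test in either comparison. Coq2 was at 36.6 to 47.7 CPM in Cpt2L-/- livers and 30.4 to 35.2 CPM in the floxed controls, without overlap, and its log2 fold change was 0.35 ± 0.132 (SE) with an edgeR adjusted p of 0.0760. The log2 fold change of Pdss2 was -0.13 ± 0.181 with an adjusted p of 0.649, and that of Coq9 was -0.14 ± 0.121 with an adjusted p of 0.454. Coq9 was at 98.4 to 117 CPM in Cpt2L-/- livers and at 113 to 117 CPM in the floxed controls.

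In all, 2 of the 10 genes rose and 1 fell in Cpt2L-/- livers against the floxed controls, where 23.8% of the 13270 genes tested changed, 11.9% in each direction. The ranges of the groups did not overlap for 5 genes that were higher and 1 that was lower, against 26.7% of all genes, 14.2% higher and 12.5% lower. Against Rab30L-/-, 4 of the 10 changed where 31.4% of 13359 genes did so, and these 4 split into 2 that rose and 2 that fell. Ranges were apart for 2 higher and 1 lower gene, against 31.1% of all genes, 16.3% higher and 14.8% lower. The shares of changed genes in the set were thus near those of all genes, while the 6 of 10 with ranges apart against the floxed controls were a larger share than in all genes, a difference that was not tested. Taken without sign, the median log2 fold change was 0.34 for the 10 genes and 0.34 for all genes against the floxed controls, and 0.39 and 0.35 against Rab30L-/-.

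**Figure D2:**
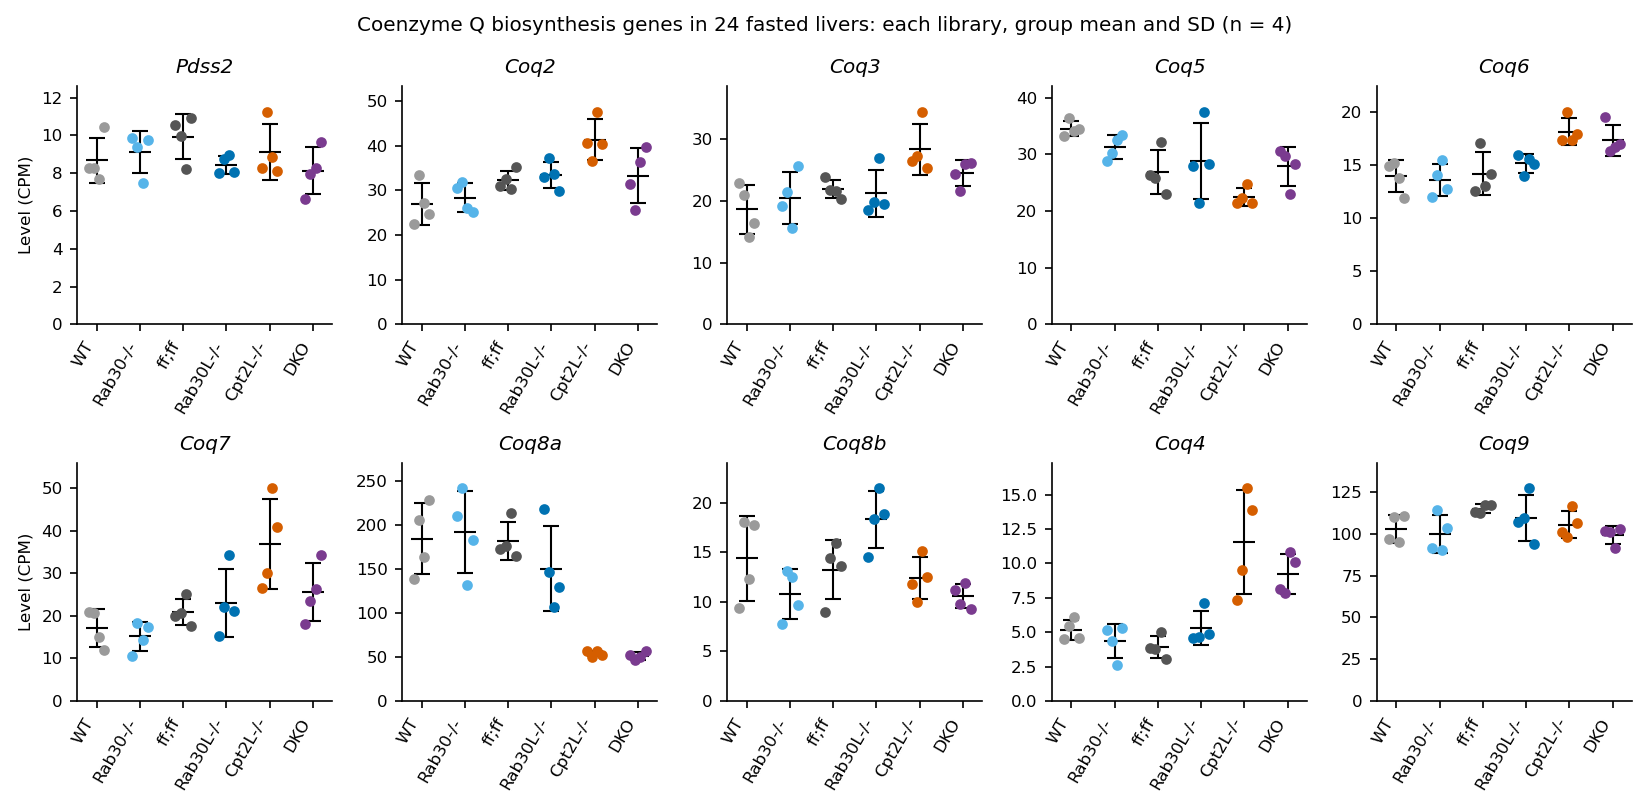
Level in CPM (vertical axes from 0) of each of the 10 genes in every library (points) of the 6 groups, with the group mean and SD (n = 4 livers). The Coq8a points of the Cpt2L-/- and DKO livers, between 46.5 and 56.9 CPM, lie below the points of all other livers.

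Markers of cell types moved in both comparisons. Beside them, 23.8% of all genes changed against the floxed controls, 11.9% in each direction, and 31.4% changed against Rab30L-/-. Of the 5 hepatocyte markers, 0 rose and 3 fell in Cpt2L-/- livers against the floxed controls, with a median log2 fold change of -0.81. Of the 6 Kupffer cell markers, 1 rose (Cd68, log2 fold change of 2.60) and 3 fell, and their summed level was 144 to 205 CPM against 130 to 246 CPM. None of the 6 stellate cell markers passed the test, and 1 of the 6 endothelial and 1 of the 4 bile duct markers tested fell, as did all 4 erythroid markers. Among nuclear genes that track mitochondrial content, 2 of 12 rose, Cs (citrate synthase) by 1.13 ± 0.162 and Phb (prohibitin) by 0.76 ± 0.140 on the log2 scale, and 10 did not pass. Against Rab30L-/- livers 0 hepatocyte markers rose and 3 of 5 fell, 1 Kupffer cell marker (Cd68 again) rose and 4 of 6 fell, and all 4 erythroid markers fell. The Kupffer cell markers summed to 144 to 205 CPM in Cpt2L-/- and 180 to 490 CPM in Rab30L-/- livers. None of the stellate or endothelial markers passed in that comparison, 1 of 3 bile duct markers tested fell, and Cs and Phb again rose. Mitochondrially encoded genes took 6.101% to 7.324% of counts in Cpt2L-/- livers and 4.306% to 4.855% in Rab30L-/- livers, without overlap, and 4.663% to 7.861% in the floxed controls. The part of cell composition and of mitochondrial content in the values of the coenzyme Q genes was not tested.

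In neither Rab30 knockout did any of these genes pass the test. In whole-body Rab30-/- livers 0 of the 10 passed against WT littermates, where 3 of 13656 genes, or 0.0220%, did so. None of the 10 had an unadjusted p under 0.05 in edgeR, and DESeq2 and limma-voom also called 0, where they called 0.0732% and 0.00732% of all genes. The largest difference was that of Coq8b, at 7.82, 13.1, 12.6 and 9.70 CPM in Rab30-/- and at 9.39, 18.1, 12.3 and 17.8 CPM in WT livers, with overlapping ranges and a log2 fold change of -0.42 ± 0.254 (SE). Taken without sign, the median log2 fold change was 0.10 for the 10 genes and 0.15 for all genes. The log2 fold change of Coq8a was 0.06 ± 0.216, an error that leaves room for moderate changes in either direction.

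In Rab30L-/- livers 0 of the 10 passed against the floxed controls, where 0.479% of 13367 genes did so. Coq8b was the 1 gene with an unadjusted p under 0.05 in edgeR, with a log2 fold change of 0.46 ± 0.196 (SE) and an adjusted p of 0.415, and DESeq2 and limma-voom called 0 as well, where they called 2.23% and 1.79% of all genes. Coq4 had a log2 fold change of 0.43 ± 0.247 with an adjusted p of 0.542, and Coq8a one of -0.28 ± 0.210 with an adjusted p of 0.668. Without the deepest library these were 0.26 ± 0.257 for Coq4 and -0.13 ± 0.196 for Coq8a, and without the Rab30L-/- liver at 219 CPM that of Coq8a was -0.52 ± 0.174, with adjusted p of 0.8103, 0.8894 and 0.2236. No ranges were apart in either comparison, against 1.31% of all genes for the whole-body and 6.38% for the liver-specific knockout. The change of Coq8b in the whole body knockout less that in the liver knockout was -0.85 ± 0.332 on the log2 scale over 16 libraries, with an edgeR unadjusted p of 0.0199 and an adjusted p of 0.604. In this comparison of the knockouts 0 of the 10 passed, against 0.0210% of all genes, and DESeq2 and limma-voom called 0, against 0.412% and 0.0419%. The knockouts had separate controls, so whole-body loss and the background of each line cannot be told apart.

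The DKO livers are described by their values. Against the floxed controls the log2 fold change was -1.83 ± 0.140 (SE) for Coq8a and 1.23 ± 0.221 for Coq4, which was at 8.17, 7.87, 10.8 and 10.1 CPM in DKO livers, and the other 8 genes lay between -0.34 and 0.29. Against Cpt2L-/- livers, which differ from DKO in Rab30 by label, the median log2 fold change was -0.18 for the 10 genes and -0.00311 for all genes. Taken without sign, it was 0.21 for the 10 genes and 0.23 for all genes. The log2 fold change of Coq6 ranged from -0.118 to 0.00343 with 1 library left out. In that contrast 2.71% of all genes were past the thresholds. Coq8a differed by -0.06 ± 0.105 on the log2 scale between DKO and Cpt2L-/-. Coq7 had the largest value, -0.51 ± 0.220, with 18.1, 23.5, 26.3 and 34.4 CPM in DKO livers overlapping the Cpt2L-/- range, and Coq5 was the gene above 0, at 0.32 ± 0.124.

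**Figure D3:**
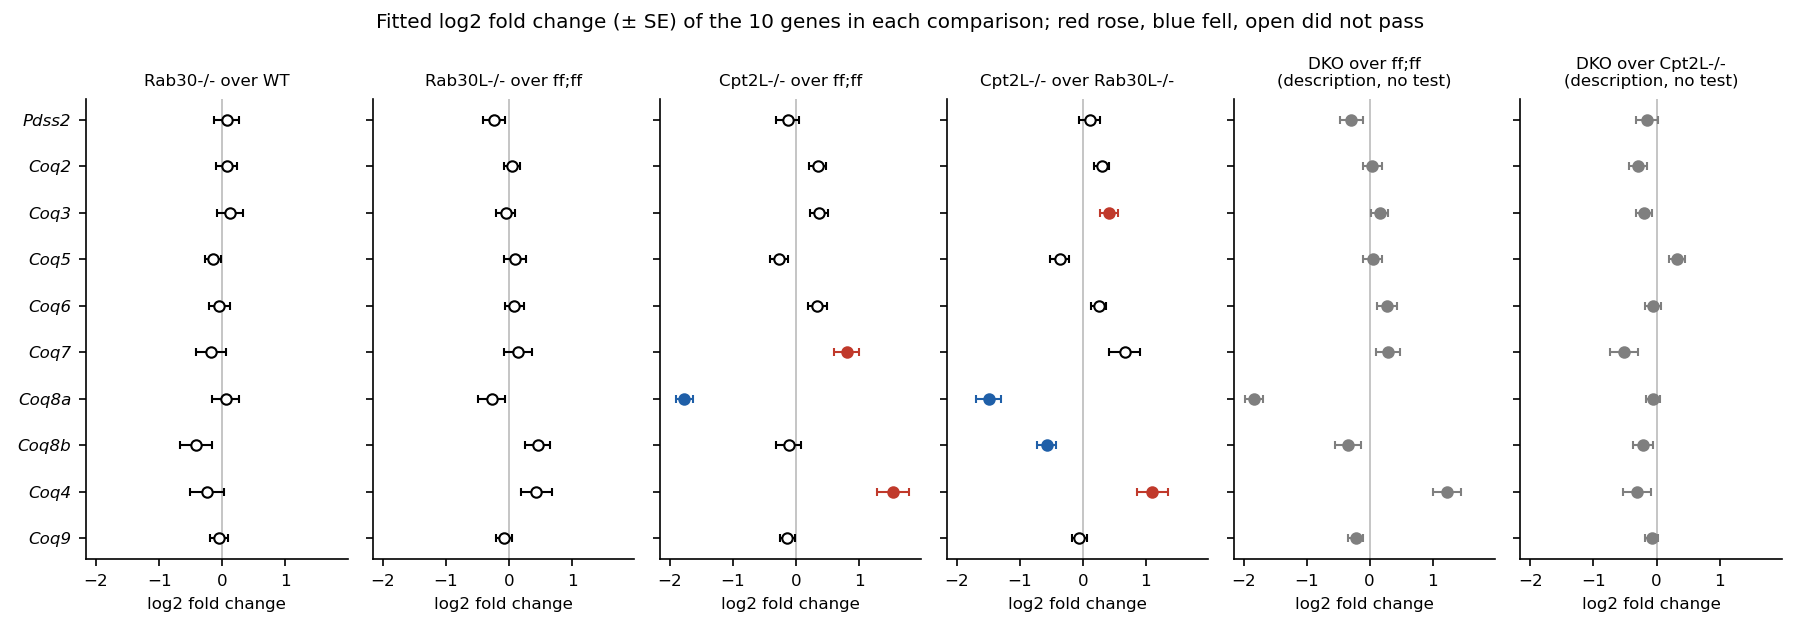
Fitted log2 fold change (horizontal axes) with its SE for each of the 10 genes in 6 comparisons of 4 and 4 livers. Red points rose and blue points fell past the thresholds, open points did not, and grey points are the DKO comparisons, for which no test is given. Coq8a lies at -1.77 and -1.49 in the comparisons of Cpt2L-/- livers, and between -0.28 and 0.06 in those of Rab30 loss.

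The other genes of the pathway were described from lists of regulators, precursor supply and enzymes that use coenzyme Q. Among the regulators and partners, 0 of 7 tested rose and 4 fell in Cpt2L-/- livers against the floxed controls, with a median log2 fold change of -0.57, beside 23.8% of all genes changed and 11.9% lower. The 4 were Pptc7, a mitochondrial phosphatase, at -1.07 ± 0.263 (SE), the ferredoxin reductase Fdxr at -0.80 ± 0.206, the coenzyme Q binding protein gene Coq10b at -0.78 ± 0.253 and the ferredoxin Fdx1 at -0.57 ± 0.143, with edgeR adjusted p of 0.011, 0.0127, 0.0416 and 0.0103. Fdxr and Fdx1 supply electrons to mitochondrial monooxygenases, Coq6 among them. Pdss1, the partner of Pdss2 in the tail synthase, was at -0.09 ± 0.257 with an adjusted p of 0.848. Against Rab30L-/- 3 of these 7 fell and 0 rose, beside 31.4% of all genes changed, and Coq10b did not pass.

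Of the precursor genes, 0 of 9 tested rose and 2 fell in the same comparison, with a median log2 fold change of -0.42, a share near that of all genes (23.8%). Tat, which starts tyrosine breakdown towards the ring precursor, was at -1.95 ± 0.265 (SE) with an edgeR adjusted p of 0.000185, and Acat2 at -0.68 ± 0.210 with an adjusted p of 0.0309. Against Rab30L-/-, where 31.4% of all genes changed, 3 fell, Tat, Acat2 and the mevalonate kinase gene Mvk, and 1, Hmgcs1, rose by 0.65 ± 0.163 with an adjusted p of 0.00956.

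Among the 23 enzymes and subunits that use coenzyme Q, 3 rose and 4 fell in Cpt2L-/- livers against the floxed controls, a share near the 23.8% of all genes that changed. Genes of proline and hydroxyproline oxidation had the largest falls, Prodh2 at -1.89 ± 0.139 (SE) and Prodh at -1.59 ± 0.169, followed by Sqor, the sulfide oxidoreductase, and Sdhb, a subunit of complex II. The quinone reductase Nqo1 rose by 1.31 ± 0.269 on the log2 scale, the glycerol phosphate dehydrogenase Gpd2 by 1.01 ± 0.220 and Etfdh, which passes electrons from fatty acid oxidation to coenzyme Q, by 0.66 ± 0.143. The edgeR adjusted p of these 7 genes lay between 2.183e-06 and 0.00461. None of the complex III genes on the list passed in this comparison or against Rab30L-/-. Against Rab30L-/-, where 31.4% of all genes changed, 4 of the 23 rose and 4 fell, the 7 above in the same directions and Aifm2, a coenzyme Q reductase, by 0.50 ± 0.126 with an adjusted p of 0.00923. In both Rab30 knockouts 0 genes of the 3 lists passed against their controls. Of all genes, 0.0220% passed there in whole-body Rab30-/- and 0.479% in Rab30L-/- livers.

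**Figure D4:**
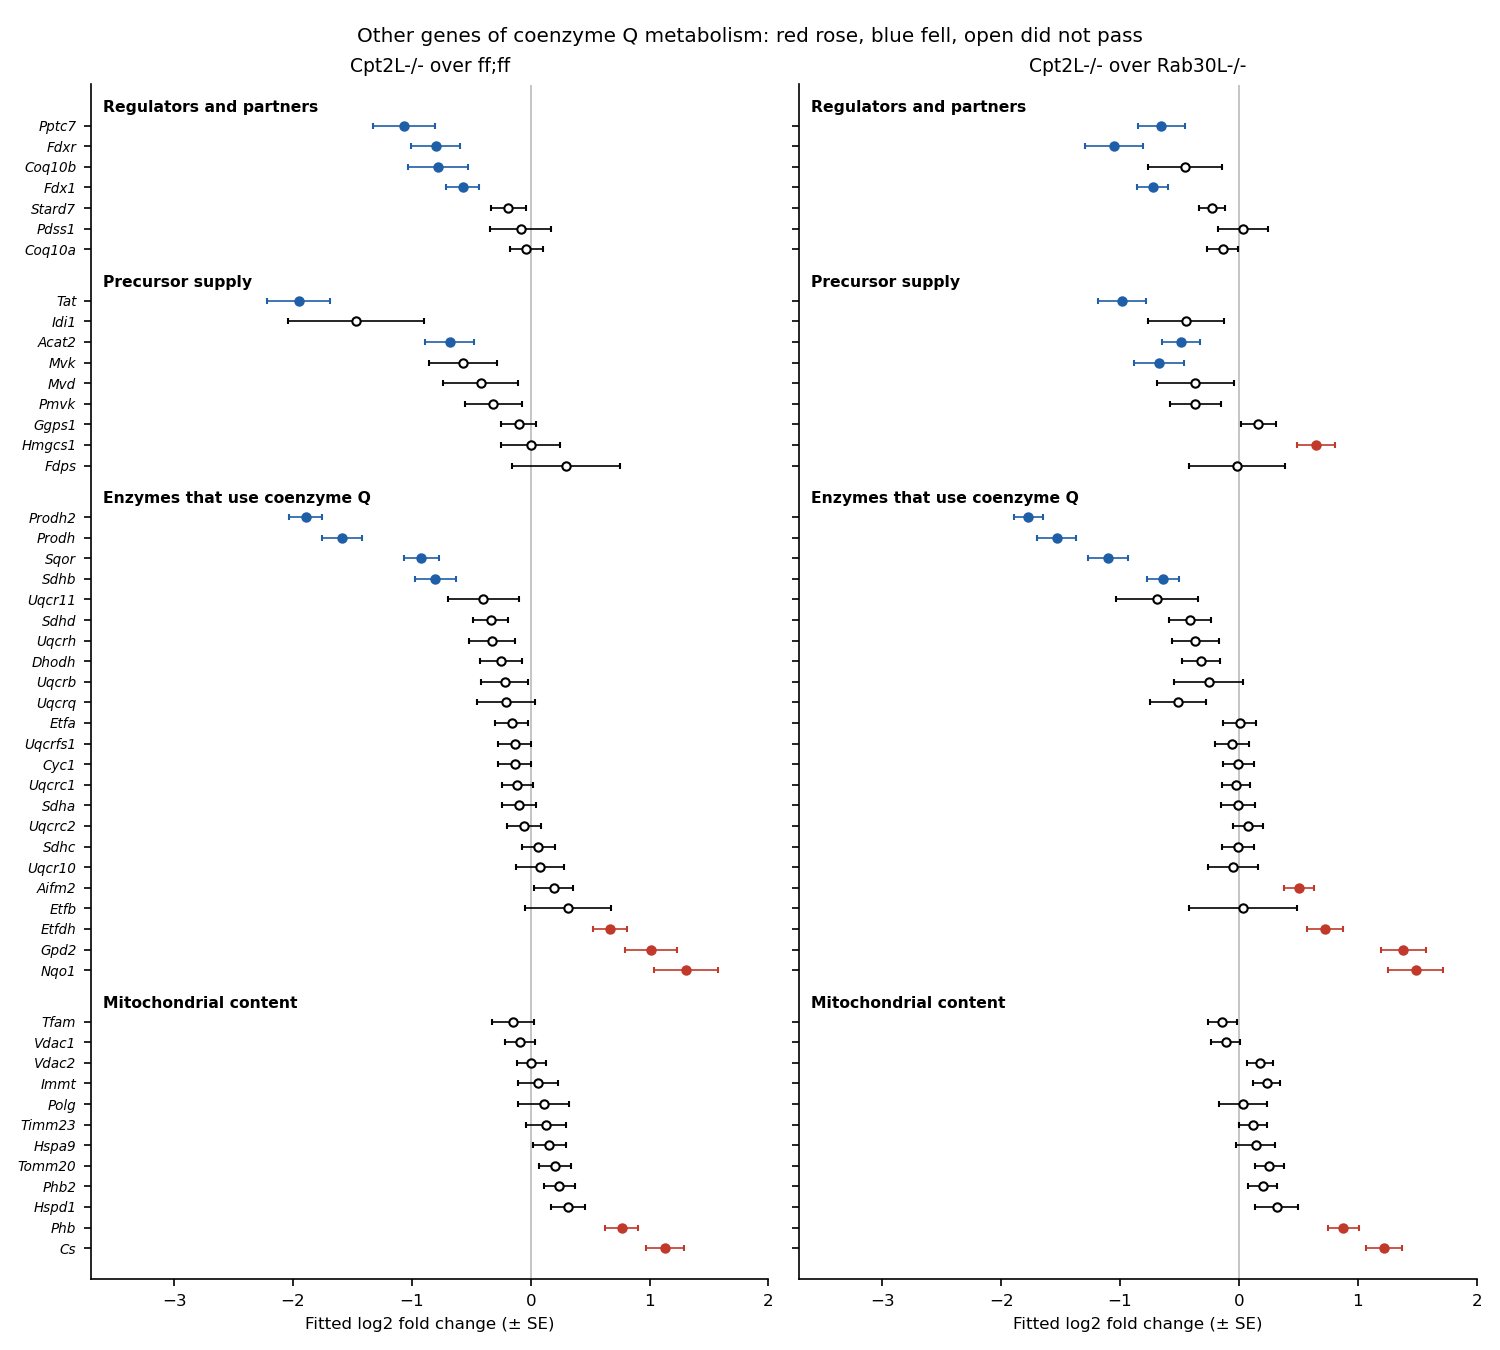
Fitted log2 fold change with its SE (horizontal axes) of regulators, precursor genes, users of coenzyme Q and mitochondrial content genes (1 per row) in Cpt2L-/- livers against the floxed controls (left) and against Rab30L-/- (right). Red points rose, blue points fell and open points did not pass. All 4 regulators past the thresholds on the left lie below 0, from -1.07 to -0.57.

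Across the 24 livers, the genes whose log2 CPM was most like that of Coq8a, among 13605 genes with a mean of at least 10 counts, were Pygl (glycogen phosphorylase, Pearson r of 0.946), Slc29a1 (a nucleoside transporter, 0.943), Abcb11 (the bile salt export pump, 0.939), Cited2 (a transcriptional coregulator, 0.935) and Ppp1r3c (a glycogen-targeting subunit of protein phosphatase 1, 0.930). These livers share the 6 groups, and with each group's mean taken out the values were 0.451, 0.417, 0.460, 0.687 and 0.327. No gene of the set was among them, and the value of Coq8a with Coq8b was 0.259. Within groups, Coq3 and Coq7 had the highest value among pairs of the 10 genes, 0.657, and Coq4 and Coq7 followed at 0.559. Libraries of 1 group also share depth differences, so these values are descriptions.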

How the data were processed

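The authors deposited whole-number read counts per gene and FPKM values (counts scaled by gene length and library size) for 24 libraries; the FPKM formula, the gene counter, the annotation and the use of strand are not given in the sources used here. The submitters' processing notes name HISAT2, DESeq2 and the builds GRCm38 and mm10. RNA was extracted from frozen liver and libraries were made by a sequencing company. Tables of the authors' own comparisons (fold changes and p-values) and their normalized values were not used. Gene coordinates were the same as in GENCODE M21 for 53548 genes (98.2%), the 10 genes included.

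Samples were grouped by their labels, and each column matched 1 sample. The 36 pairs of libraries within groups differed by more than counting noise (lowest chi-square per degree of freedom 12.21). Counts were filtered with filterByExpr, scaled by TMM and fitted for each comparison on its own 8 libraries with edgeR 4.0.16 (glmQLFit with robust estimation, glmQLFTest; R 4.3.3), with Benjamini-Hochberg adjustment over all genes tested. The difference between the Rab30 knockouts was fitted over 16 libraries. CPM values are counts scaled to a common total after TMM. The fits were tested on simulated data with 200 changed genes. Alternatives were DESeq2 1.42.0 size factors and Wald test, voom with quality weights in limma 3.58.1, 1 fit of all 24 libraries, dropping the filter, requiring at least 10 counts in every library, ratios of FPKM, and leaving out each library. The depth sets counting error of low genes, and the tests weigh each group difference against the spread between animals, estimated with 4 a group.

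The genes, the lists of other genes and the tests were chosen with earlier results of these data known. Some genes of the precursor list are not reported here, and its counts and median leave them out. The text names all 10 genes; of the lists it names members past the thresholds and those it singles out by role, chosen with their values seen (Pdss1, Cd68, Trub2, Cdc42bpa), and the 5 genes of highest Pearson r with Coq8a.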

Additional observations from a re-analysis of the deposited data

Results flagged for a closer look

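In 60 checks of the 10 genes in 6 groups of 4 livers, 3 values from 2 livers lay far from the other 3 of their group. Chance gives about 1 in 20 such values, and those of 1 liver are not independent of each other. In the deepest library, a Rab30L-/- liver, Coq3 was at 26.9628 CPM against 18.6 to 19.8 CPM in the others and Coq4 at 7.12859 CPM against 4.605 to 4.86 CPM. In 1 DKO liver Coq9 was at 91.3154 CPM against 101 to 103 CPM.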

How the results depend on the processing

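No paired analysis was made, because the labels name littermate groups but do not say which mice shared a litter. The calls of Coq8a, Coq4 and Coq7 in Cpt2L-/- against floxed controls, and of Coq8a, Coq4 and Coq8b against Rab30L-/-, held under every alternative and with any 1 library left out. The number of the 10 past the thresholds was 3 or 4 against the floxed controls and 3 to 5 against Rab30L-/-, where the fits with 1 library left out called 17.4% to 25.4% and 23.5% to 31.4% of all genes and limma-voom 31.9% and 36.2%. For DKO against Cpt2L-/- no p of these genes is given. The count past the thresholds there was 0 in edgeR, which called 2.71% of all genes, and 1 in limma-voom, which called 11.5%. Results of the DKO livers were known when the set was proposed, so nothing is read from this count. Against Rab30L-/- the call of Coq3 was lost under DESeq2 size factors, DESeq2, the fit over 24 libraries and the filter at 10 counts (adjusted p of 0.0533, 0.057, 0.0611 and 0.0535), while Coq7 passed under DESeq2, limma-voom and the fit over 24 libraries (0.034, 0.0217 and 0.0465) and without 1 of the Cpt2L-/- livers (0.0455), and Coq5 passed without 1 of the Rab30L-/- livers (0.0256). Against the floxed controls Coq3 passed under limma-voom (0.0451) and Coq6 under the fit over 24 libraries (0.0488). The cause was not tested.

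Directions turned for the tested values below, none of which passed. Under limma-voom these were Coq8a in whole-body Rab30-/- (-0.0161), Coq2 (-0.00459) and Coq6 (-0.0496) in Rab30L-/-, and Coq6 in the difference of the knockouts (0.0342). With 1 library left out, log2 fold changes in whole-body Rab30-/- ranged from -0.00356 to 0.255 for Coq3, -0.112 to 0.0290 for Coq6, -0.0851 to 0.202 for Coq8a and -0.126 to 0.00910 for Coq9. In Rab30L-/- they ranged from -0.00968 to 0.0904 for Coq2, -0.174 to 0.00203 for Coq3, -0.0485 to 0.208 for Coq5 and -0.0982 to 0.291 for Coq7. In Cpt2L-/- against Rab30L-/- they ranged from -0.123 to 0.0119 for Coq9 and -0.0204 to 0.161 for Pdss2, and in the difference of the knockouts from -0.0287 to 0.164 for Coq2 and -0.0219 to 0.126 for Coq9. Of the values given without a test, the log2 fold change against the floxed controls of Coq2 in DKO was -0.103 to 0.0563 over the other settings and -0.0523 to 0.148 with 1 library left out, that of Coq5 in DKO -0.0240 to 0.143 with 1 library left out, and that of Coq6 in DKO against Cpt2L-/- -0.118 to 0.00343. Coq4, at 36 to 239 reads over the 24 libraries, is the gene where depth limits most.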
